A study of Mus musculus with 12 samples.

Results

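SP3 and SP4 are the last stages through which CD4 single positive (SP) thymocytes pass in the medulla of the thymus before they leave for the periphery, and they were compared here over 6 of the 12 arrays of the study. SP4 cells were Qa-2+6C10-CD69- and SP3 cells Qa-2-6C10-CD69-, so that the sort told them apart by Qa-2 alone. Each subset was measured on 3 Affymetrix expression arrays of biological replicates, sorted from pooled thymi of C57BL/6 mice aged 6 to 8 weeks that had received no treatment. The other 6 arrays held the earlier subsets SP1 (Qa-2-6C10+CD69+) and SP2 (Qa-2-6C10-CD69+), and they entered the fit for its estimate of the spread. All 4 subsets were CD4+CD8-CD25-NK1.1-, and CD8+ cells had been killed with antibody and complement before the sort. Mature T cells that return from the periphery to the thymus were not gated out of the SP4 cells used for the arrays, as the study states. All 45037 probe sets of the deposited table were compared, of which 34945 name 1 gene in the annotation, and 18193 genes had a probe set of their own.

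Thymocytes that have passed positive selection become CD4 SP cells and spend some days in the medulla. There they lose surface molecules of immature cells, such as CD24 and the activation marker CD69, and gain Qa-2, a nonclassical MHC class I molecule that is anchored to the membrane by a lipid and is encoded by several near-identical genes of the H2-Q region. In the same period the cells become able to divide and to make cytokines when their receptor is engaged, and they acquire the receptors with which they leave the thymus. The medulla also holds T cells of other kinds that share the CD4 SP phenotype, among them innate-like T cells, regulatory T cells and returning mature T cells.

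Qa-2 transcripts separated the subsets as the sort did. The probe set that the annotation gives to both H2-Q9 and H2-Q7, genes of Qa-2, had intensities of 785, 526 and 565 in SP3 and 2561, 2119 and 1923 in SP4. The lowest SP4 array was well above the highest SP3 array. This was a log2 change of 1.80 ± 0.24 (adjusted p = 0.00320 with the block and 0.142 without it), that is, a change in log2 of the intensity plus 16. The block is the replicate number, by which arrays of the same number were compared as pairs. Here and below, ± is the standard error of each log2 difference in the fit whose adjusted p comes first. Where only 1 adjusted p follows, the fit is that without the block. Standard errors of the 2 fits are not directly comparable. Probe sets shared by H2-Q6 and H2-Q8 gave 126, 137 and 197 in SP3 and 286, 321 and 391 in SP4 at a log2 change of 1.05 ± 0.18 (adjusted p = 0.0126 with the block and 0.232 without it). The probe set that H2-Q4 shares with them had a log2 change of 1.07 ± 0.32 (adjusted p = 0.512 without the block and 0.0923 with it). Since Qa-2 protein was the gate, these values check the labels and are no finding, and a probe set shared by similar genes cannot say which of them moved.

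With the block, members of the same H2-Q cluster moved in opposite directions. H2-Q2, whose product is a nonclassical class I chain, had intensities of 377, 275 and 87.4 in SP3 and 98.9, 107 and 28.1 in SP4. It fell in all 3 pairs, although the subsets overlapped because both arrays of replicate 3 were low, at a log2 change of -1.42 ± 0.19 (adjusted p = 0.00279 with the block and 0.973 without it). Its SP1 arrays read 369, 291 and 90.0 and its SP2 arrays 126, 94.8 and 57.7, so it was also low in SP2. H2-Q5 stood at 30.1, 27.1 and 25.6 in SP3 and 47.1, 48.7 and 66.8 in SP4, with every SP4 array above every SP3 array, at a log2 change of 0.68 ± 0.12 (adjusted p = 0.0170 with the block and 0.0931 without it). Of the 8 genes of the list of nonclassical class I genes with a probe set of their own, these were the only genes called with the block. That is 1 higher and 1 lower, beside 1.21% and 0.280% of all genes. Without the block 0 were called (median log2 fold change 0.01, against -0.02 over all genes). Calls of named probe sets with the block were run again without all 4 arrays of replicate 1, 2 or 3. The shared H2-Q7 and H2-Q9 probe set, the shared H2-Q6 and H2-Q8 probe set, H2-Q2 and H2-Q5 lost the call with the block without replicate 1 (adjusted p = 0.0665 to 0.174), H2-Q5 without replicate 2 (adjusted p = 0.0985) and the shared H2-Q6 and H2-Q8 probe set and H2-Q5 without replicate 3 (adjusted p = 0.0652 to 0.0726).

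Promoters of H2-Q genes and of H2-D1 are shown because probe sets of the H2-Q cluster differed in direction, although those of H2-Q7 and H2-Q6 are shared and do not say which gene moved. RefSeq on GRCm38.p6 gives 300 bases for each, from 250 before to 50 after the transcription start, and of 8 H2-Q, H2-K and H2-D genes looked up, 7 had an entry. Capitals mark the 7 runs of 12 or more letters that the windows of H2-Q7, H2-Q6 and H2-D1 all hold.
H2-Q7 (chr17:35438905-35439204, + strand): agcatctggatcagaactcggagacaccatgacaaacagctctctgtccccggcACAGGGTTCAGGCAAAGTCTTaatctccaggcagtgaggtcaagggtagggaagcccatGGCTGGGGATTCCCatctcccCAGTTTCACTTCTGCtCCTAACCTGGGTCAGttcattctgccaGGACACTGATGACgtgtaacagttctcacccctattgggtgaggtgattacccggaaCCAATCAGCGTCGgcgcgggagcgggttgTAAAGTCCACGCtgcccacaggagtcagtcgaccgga
H2-Q6 (chr17:35424600-35424899, + strand): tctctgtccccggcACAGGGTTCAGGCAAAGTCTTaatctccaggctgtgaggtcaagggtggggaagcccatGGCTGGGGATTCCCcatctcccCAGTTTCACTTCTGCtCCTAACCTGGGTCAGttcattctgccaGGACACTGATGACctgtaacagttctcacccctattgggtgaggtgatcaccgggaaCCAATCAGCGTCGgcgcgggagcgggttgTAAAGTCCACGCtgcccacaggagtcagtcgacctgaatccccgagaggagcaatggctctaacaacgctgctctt
H2-D1 (chr17:35262844-35263143, + strand): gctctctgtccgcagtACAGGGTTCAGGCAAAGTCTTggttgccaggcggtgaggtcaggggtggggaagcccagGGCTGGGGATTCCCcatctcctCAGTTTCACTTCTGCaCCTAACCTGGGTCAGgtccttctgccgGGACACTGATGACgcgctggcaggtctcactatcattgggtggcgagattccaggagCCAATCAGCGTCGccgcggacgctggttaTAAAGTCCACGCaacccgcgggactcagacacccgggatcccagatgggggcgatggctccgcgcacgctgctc
H2-Q2 (chr17:35342057-35342356, + strand): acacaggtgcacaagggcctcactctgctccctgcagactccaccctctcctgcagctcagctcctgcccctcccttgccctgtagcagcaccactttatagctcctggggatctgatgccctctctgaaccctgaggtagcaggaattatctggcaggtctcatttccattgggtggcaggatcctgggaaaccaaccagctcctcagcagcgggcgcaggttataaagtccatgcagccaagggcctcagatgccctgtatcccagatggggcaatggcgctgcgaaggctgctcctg

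The runs are 12 to 21 letters long, and the window of H2-Q2 held 0 of the 7 on either strand. Each was found, on either strand, in 5 to 9 of the 32851 promoters of the table (0.0152% to 0.0274%). Of the other class I windows, that of H2-K1 held 5 of the 7, that of H2-Q4 3 and that of H2-Q10 1. As the runs were taken from H2-Q7, H2-Q6 and H2-D1, neither their presence there nor their absence from H2-Q2 is a finding. H2-Q5, which rose with the block, was not looked up, and no binding was measured. H2-D1, a classical class I heavy chain, had intensities of 851, 690.5 and 620.1 in SP3 and 1383, 1076 and 887 in SP4, with all SP4 arrays above all SP3 arrays, and a log2 change of 0.61 ± 0.12 (adjusted p = 0.0269 with the block and 0.894 without it). H2-D1 lost the call with the block without replicate 1, 2 or 3 (adjusted p = 0.488, 0.0996 and 0.188).

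Cd4, a marker of the labelled cell type, had intensities of 646, 1027 and 424 in SP3 and 612, 915 and 423 in SP4. Cd69, whose protein both gates excluded, read 662, 595 and 580.4 in SP3 and 979.7, 609.9 and 738 in SP4, beside 868, 1112 and 473 in the CD69+ SP1 arrays, so its transcript was well above the dim end in cells sorted as CD69-. The subsets overlapped for both genes. Log2 fold changes were 0.31 ± 0.33 (adjusted p = 1 without the block and 0.677 with it) for Cd69 and -0.08 ± 0.35 (adjusted p = 1 without the block and 0.891 with it) for Cd4. T lineage genes (17 measured, among them Cd4, Cd3e, Cd3g and Zap70) had a median log2 change of -0.05, with 0 called in either fit. The list's summed intensity was 34315 to 39186 in SP3 and 33439 to 36300 in SP4. Array medians of the 6 arrays were between 30.5 and 32.1. The first principal component of all 12 arrays, with 56.8% of the variance, set replicate 3 of every subset apart from replicates 1 and 2, and the second, with 13.2%, followed the order of the subsets.

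Against SP3, 46 probe sets were higher in SP4 and 5 were lower past a fold of 2 with an adjusted p below 0.05 (limma on log2 of the intensity plus 16). This was 0.102% of the probe sets tested in the upward and 0.0111% in the downward direction. The 46 probe sets named 37 genes, beside 3 unnamed here and 1 that several genes share, and the 5 named 4 genes. Each of the 51 moved the same way in all 3 pairs, and in each the 3 SP4 arrays lay beyond all 9 arrays of the other subsets. Most were dim before the change: 27 of the 46 had a mean intensity under 50 in SP3. With the replicate number as a block, 125 probe sets of 82 genes were higher (0.278%) and 37 of 18 genes lower (0.0822%), and the 51 were among them. Over 1 probe set per gene and at any fold, 39 genes rose (0.214% of 18193) and 2 fell (0.0110%) without the block, and 221 rose (1.21%) and 51 fell (0.280%) with it.

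**Figure D1:**
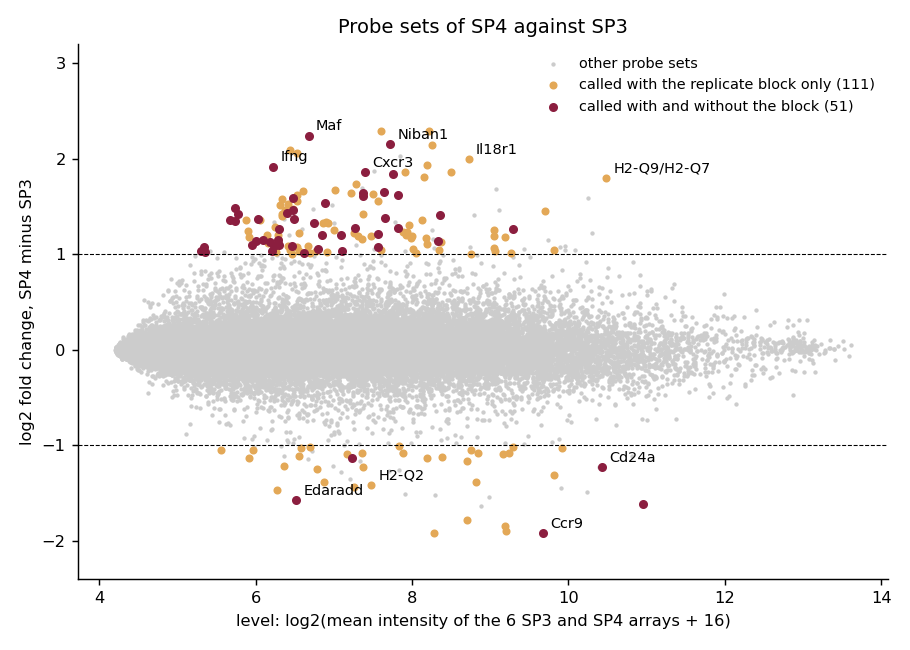
Log2 fold change of each probe set from SP3 to SP4 (vertical) against its level, as log2 of the mean intensity over the 6 arrays plus 16 (horizontal). Dark red points are the 51 probe sets called in both fits, orange points those called only with the replicate block, and the dashed lines mark a fold of 2, with most calls above the upper line and at low to middle levels.

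The calls without the block depended on single arrays. Of 23 named probe sets called in that fit, 22 lost the call when any 1 of the 3 SP3 arrays was left out, and only Maf passed without each of the 12 arrays in turn (adjusted p = 0.00109 to 0.0475). Leaving out replicate 1, 2 or 3 of SP4 ended 12, 16 and 11 of the 23 calls, replicate 1, 2 or 3 of SP1 ended 17, 11 and 1, and replicate 1, 2 or 3 of SP2 ended 19, 18 and 4. Cd44, an adhesion receptor for hyaluronan that is abundant on activated and memory T cells, passed under none of the 12 omissions (adjusted p = 0.0511 to 0.283), and its intensities were 147, 201 and 208 in SP3 and 464, 413 and 395 in SP4. With the block, 81 named probe sets were called, and 13 of them, of 12 genes, passed whichever replicate number was left out whole. Of the 81, 19 passed without all arrays of replicate 1, 55 without those of replicate 2 and 54 without those of replicate 3. Only named probe sets were run again in this way, so other called probe sets may pass too. The 12 genes are described first.

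Of the 12 genes, 5 encode transcription factors. Named genes came in part from chosen lists, 1 of them of such factors, so this count is no finding. Maf, a factor that drives interleukin 4 and interleukin 10 in T cells, had intensities of 13.8, 21.8 and 21.0 in SP3 and 114, 126 and 221 in SP4 by its probe set of largest fold. Every SP4 array was several times the highest SP3 array. Maf rose from 18.9 ± 4.41 to 154 ± 58.3 (SD, n = 3 arrays each), a log2 change of 2.24 ± 0.21 (adjusted p = 0.00457). A second, brighter probe set of Maf read 77.7, 134 and 219 in SP3 and 405, 448 and 789.8 in SP4, a log2 change of 1.86 ± 0.18 (adjusted p = 0.000632 with the block and 0.232 without it), and another probe set rose by 1.34 on the log2 scale (adjusted p = 0.0304).

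Tbx21 encodes T-bet, the factor of the type 1 helper and natural killer programmes. It gave 32.7, 29.7 and 21.2 in SP3 and 149, 90.3 and 113 in SP4, with no overlap, and rose by 1.59 ± 0.19 (adjusted p = 0.0176). Zbtb16 encodes PLZF, the factor of innate-like T cells. Its probe set of largest fold, which may cross-hybridise by its design name, read 40.0, 81.3 and 75.9 in SP3 and 192, 267 and 244 in SP4 and rose by 1.64 ± 0.24 (adjusted p = 0.0280), while the Zbtb16 probe set of highest mean changed by 1.55 ± 0.24 (adjusted p = 0.00782 with the block and 0.0956 without it). That of highest mean lost the call with the block without replicate 3 (adjusted p = 0.0857). Hhex, a homeobox factor of haematopoietic progenitors, went from 34.2, 29.7 and 28.4 in SP3 to 95.0, 159.6 and 92.7 in SP4, a log2 change of 1.46 ± 0.22 (adjusted p = 0.0335). Vdr, the nuclear receptor of vitamin D, went from 27.8, 28.5 and 30.5 to 76.0, 142 and 105, a log2 change of 1.43 ± 0.18 (adjusted p = 0.0201). For Hhex and Vdr the SP3 arrays spanned only a few units, and every SP4 array lay above them.

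Surface receptors among the 12 included Cxcr3, Il2rb and Ccr9. Cxcr3, the receptor of the interferon-induced chemokines CXCL9 and CXCL10, had intensities of 59.97, 58.5 and 45.8 in SP3 and 278, 313 and 157 in SP4. Even the lowest SP4 array, replicate 3, was above all SP3 arrays, and the log2 fold change was 1.86 ± 0.26 (adjusted p = 0.0280). Il2rb, the β chain shared by the receptors of interleukins 2 and 15, read 76.2, 116 and 94.3 in SP3 and 279, 322 and 219.6 in SP4 and rose by 1.38 ± 0.20 (adjusted p = 0.0300). Ccr9, the receptor of CCL25 which positions thymocytes and guides T cells to the gut, read 1085, 1728 and 1005 in SP3 and 353, 398 and 220.4 in SP4. It fell by 1.92 on the log2 scale (SE 0.31, adjusted p = 0.0434), with the highest SP4 array below the lowest SP3 array. A second Ccr9 probe set, brighter in all arrays, fell by 1.62 (adjusted p = 0.0176).

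Other genes of the 12 encode enzymes and proteins outside the nucleus. Nt5e, the ectoenzyme CD73 that makes adenosine at the cell surface, had intensities of 42.4, 74.3 and 80.2 in SP3 and 166, 213 and 326 in SP4 and rose by 1.604 ± 0.25 (adjusted p = 0.0360). Niban1, a protein of the cell's stress response, read 44.3, 68.8 and 63.3 in SP3 and 191, 366 and 434 in SP4 and rose by 2.15 ± 0.26 (adjusted p = 0.0176). Fgl2, a fibrinogen-like protein secreted by T cells, read 10.8, 10.2 and 13.3 in SP3 and 89.4, 46.7 and 51.9 in SP4, and Prg4, a lubricating proteoglycan, 11.3, 15.2 and 11.8 in SP3 and 35.1, 92.6 and 65.6 in SP4. Both were near the dim end of the arrays in SP3 and rose, by 1.48 ± 0.19 (adjusted p = 0.0227) for Fgl2 and 1.42 ± 0.20 (adjusted p = 0.0280) for Prg4. No pair of any of the 12 genes went the other way.

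Other genes of large fold were called only with the block. Klk1, a kallikrein protease, read 11.4, 13.1 and 25.7 in SP3 and 80.6, 149.9 and 144 in SP4, with all SP4 arrays above all SP3 arrays, at 2.09 ± 0.34 (adjusted p = 0.00995 with the block and 0.0550 without it). Its SP1 arrays read 35.8, 53.2 and 6.66. Cst7, cystatin F, an inhibitor of proteases in cytotoxic cells, read 44.9, 62.5 and 50.3 in SP3 and 120.1, 309 and 248 in SP4, also without overlap, at 1.73 ± 0.31 (adjusted p = 0.0178 with the block and 0.136 without it). A930003A15Rik fell, from 90.0, 78.8 and 35.2 in SP3 to 21.4, 23.6 and 16.6 in SP4, at -1.14 ± 0.17 (adjusted p = 0.00606 with the block and 0.186 without it). Its SP2 arrays read 15.3, 11.1 and 14.2, each below the SP4 array of the same number. Klk1 and A930003A15Rik lost the call with the block without replicate 1 (adjusted p = 0.0902 to 0.203), Cst7 without replicate 2 (adjusted p = 0.112) and Cst7 without replicate 3 (adjusted p = 0.0729).

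**Figure D2:**
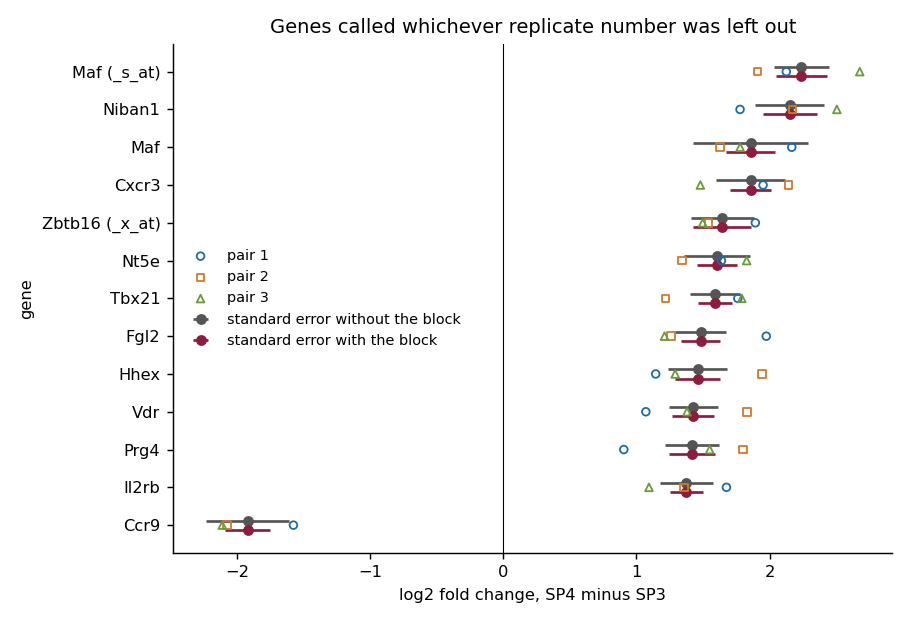
Log2 fold change from SP3 to SP4 (horizontal) of 13 probe sets of 12 genes (vertical, with _s_at or _x_at added where the probe set name ends so). Of the 81 named probe sets called with the block, they are those that passed whichever replicate number was left out. Filled points are the fitted values with the standard error of each fit, open symbols are the 3 pairs, and every pair lies on the same side of 0 as its fitted value.

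Among genes of effector cytokines, Ifng rose. Ifng encodes interferon gamma, the cytokine of type 1 helper cells, and had intensities of 14.3, 10.3 and 16.1 in SP3 and 78.9, 61.6 and 171 in SP4. All SP3 arrays were near the dim end and all SP4 arrays well above them, at a log2 change of 1.92 ± 0.28 (adjusted p = 0.0308). Il4, the cytokine of type 2 helper cells, read 23.6, 41.2 and 93.5 in SP3 and 70.6, 237 and 536 in SP4, with overlapping subsets because SP3 replicate 3 exceeded SP4 replicate 1. Its log2 fold change was 1.87 ± 0.53 (adjusted p = 0.461 without the block and 0.0593 with it). Of 17 measured T helper cytokine genes, 1 rose without the block, Ifng (0.214% of all genes), and 2 with it (1.21%), the other being Tnfsf8, the CD30 ligand (57.8, 53.3 and 88.4 in SP3 and 118, 111 and 191 in SP4), while 16 had a log2 fold change above 0 (median 0.19). Ifng and Tnfsf8 lost the call with the block without replicate 1 (adjusted p = 0.0515 to 0.154). The Ifng call was lost without SP1 replicate 1, SP2 replicate 1 or 2, or any SP3 array (adjusted p up to 0.187).

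Of 32 measured T cell transcription factors, 2 rose without the block, Tbx21 and Bhlhe40 (0.214% of all genes), and with it 8 rose and 1 fell (1.21% and 0.280% of all genes). Bhlhe40, a repressor that supports cytokine production by helper T cells, read 64.7, 65.9 and 107 in SP3 and 272, 201 and 386 in SP4, a log2 change of 1.65 ± 0.25 (adjusted p = 0.0333). Irf8, a factor of myeloid cells and dendritic cells that activated T cells also make, read 55.3, 80.7 and 73.9 in SP3 and 226, 379 and 176 in SP4, at 1.63 ± 0.23 (adjusted p = 0.00382 with the block and 0.0550 without it). Its SP1 arrays read 114, 160 and 81.8, above all SP3 arrays. Stat4, which carries the interleukin 12 signal, read 110.3, 115 and 84.5 in SP3 and 195, 165 and 159 in SP4, at 0.67 ± 0.12 (adjusted p = 0.0137 with the block and 0.440 without it). Prdm1, which encodes Blimp-1, was dim at 10.9, 13.4 and 36.0 in SP3 and 21.5, 24.6 and 56.4 in SP4, with overlapping subsets and a log2 change of 0.47 ± 0.10 (adjusted p = 0.0488 with the block and 1 without it). Sox4, a factor of immature thymocytes, fell in the fit with the block, from 2319, 2502 and 3252 in SP3 to 1548, 1521 and 2157 in SP4, a log2 change of -0.63 ± 0.13 (adjusted p = 0.0372 with the block and 0.654 without it). Bhlhe40, Irf8, Stat4, Prdm1 and Sox4 lost the call with the block without replicate 1 (adjusted p = 0.0639 to 0.447), Prdm1 and Sox4 without replicate 2 (adjusted p = 0.0659 to 0.218) and Stat4 and Sox4 without replicate 3 (adjusted p = 0.174 to 0.239).

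Markers of NKT and other innate-like T cells included several called genes: 3 of 20 measured members rose without the block, beside 0.214% of all genes, and 7 rose with it, beside 1.21%. The 3 were Tbx21, Il18rap and Klrb1a. This list and the others were made with earlier results of these data known, so their shares are no independent evidence. Il18r1, a chain of the interleukin 18 receptor, read 101, 174 and 184 in SP3 and 440.0, 763 and 777 in SP4, and Il18rap, its partner chain, read 45.3, 49.3 and 49.8 in SP3 and 129, 136 and 82.1 in SP4. Il18rap rose by 1.01 ± 0.17 (adjusted p = 0.0469) and Il18r1 had a log2 change of 1.99 ± 0.34 (adjusted p = 0.0123 with the block and 0.0700 without it). No SP4 array of either gene came down to the SP3 range. Cxcr6, a chemokine receptor of tissue-resident and NKT cells, read 82.8, 109 and 16.7 in SP3 and 328, 307 and 53.0 in SP4. Its subsets overlapped because replicate 3 was low in both, and the paired log2 fold change was 1.42 ± 0.21 (adjusted p = 0.00546 with the block and 1 without it). Klrb1a was dim in all arrays, with a log2 change of 0.33 ± 0.05 (adjusted p = 0.0360) from 5.62, 6.08 and 6.53 in SP3 and 9.65, 11.8 and 14.2 in SP4. Il18r1, Il18rap and Cxcr6 lost the call with the block without replicate 1 (adjusted p = 0.0562 to 0.134) and Il18rap and Klrb1a without replicate 2 (adjusted p = 0.0575 to 0.0716). The summed level of the list was 4322 to 5971 in SP3 and 5935 to 8796 in SP4. As the arrays measured whole sorted subsets, a higher share of such cells and more RNA per cell cannot be told apart here.

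NK1.1, which the sort excluded, is the product of Klrb1c. The probe set that Klrb1c shares with Klrb1b was dim, at 26.0, 30.0 and 21.9 in SP3 and 94.8, 55.9 and 33.0 in SP4, with a log2 change of 0.80 ± 0.16 (adjusted p = 0.0284 with the block and 0.584 without it). The highest value was SP4 replicate 1 and the lowest of the SP4 arrays, replicate 3, was close to the highest SP3 array. The shared Klrb1b and Klrb1c probe set lost the call with the block without replicate 1 or 2 (adjusted p = 0.340 and 0.115).

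Of 28 measured natural killer receptor and cytotoxic effector genes, 0 were called without the block and 6 rose with it, beside 1.21% of all genes. Klrd1, which encodes CD94, read 44.1, 51.5 and 55.0 in SP3 and 349, 271 and 302 in SP4, a wide gap between subsets at a log2 change of 2.29 ± 0.44 (adjusted p = 0.0262 with the block and 0.186 without it). The difference is larger than the spread of these 6 arrays, but the 3 SP1 arrays of Klrd1 read 94.8, 138 and 15.99, and that spread entered the fit. Gzmb, the cytotoxic protease granzyme B, read 29.5, 22.5 and 30.0 in SP3 and 118, 76.9 and 139 in SP4, at 1.52 ± 0.24 (adjusted p = 0.00828 with the block and 0.110 without it). Ccl5, a chemokine of effector T cells, read 42.8, 55.3 and 58.2 in SP3 and 100.3, 225 and 319 in SP4, at 1.64 ± 0.35 (adjusted p = 0.0440 with the block and 0.212 without it). Its SP1 arrays read 170, 206 and 90.2, above all SP3 arrays and, in replicate 1, above SP4. Xcl1, a chemokine that draws dendritic cells, read 28.6, 18.2 and 43.8 in SP3 and 87.4, 76.7 and 185 in SP4, at 1.47 ± 0.25 (adjusted p = 0.0125 with the block and 0.132 without it). Fasl, the death ligand, overlapped, at 14.9, 23.6 and 117 in SP3 and 60.4, 42.3 and 299 in SP4, with a paired log2 change of 1.04 ± 0.17 (adjusted p = 0.00933 with the block and 1 without it), and Klrk1, the activating receptor NKG2D, had one of 1.02 ± 0.20 (adjusted p = 0.0253 with the block and 0.461 without it). A probe set shared by the inhibitory receptors Klra9 and Klra3 read 77.7, 83.7 and 86.2 in SP3 and 669, 387 and 384 in SP4, at 2.28 ± 0.30 (adjusted p = 0.00255 with the block and 0.0533 without it). Klrd1, Klrk1, Gzmb, Fasl, Ccl5, Xcl1 and the shared Klra3 and Klra9 probe set lost the call with the block without replicate 1 (adjusted p = 0.0529 to 0.468), Ccl5 without replicate 2 (adjusted p = 0.147) and Klrk1 and Ccl5 without replicate 3 (adjusted p = 0.0505 to 0.130).

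Not all genes of this kind went up. Gzma, granzyme A, read 1007, 665 and 705 in SP3 and 419.8, 608 and 362 in SP4, lower in SP4 in all 3 pairs at a log2 change of -0.76 ± 0.98 (adjusted p = 1 without the block and 0.778 with it). Eomes, the T-box factor of natural killer and memory cells, stayed dim at 29.9, 27.7 and 28.9 in SP3 and 42.2, 37.8 and 40.0 in SP4, with separate subsets and a log2 change of 0.32 ± 0.11 (adjusted p = 0.745 without the block and 0.143 with it). Nkg7, a granule protein, read 103, 103 and 122 in SP3 and 264, 298 and 338 in SP4. Tyrobp, an adaptor of natural killer and myeloid receptors, read 59.1, 54.9 and 111 in SP3 and 249.6, 442 and 363 in SP4, and neither gene had overlapping subsets. Their log2 fold changes were 1.33 ± 0.37 (adjusted p = 0.431 without the block and 0.0708 with it) and 2.03 ± 0.52 (adjusted p = 0.341 without the block and 0.0808 with it). The list had a median log2 change of 0.30 and a summed level of 2864 to 3403 in SP3 and 4058 to 5915 in SP4, and 15 of the 28 had a mean under 50 in both subsets.

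**Figure D3:**
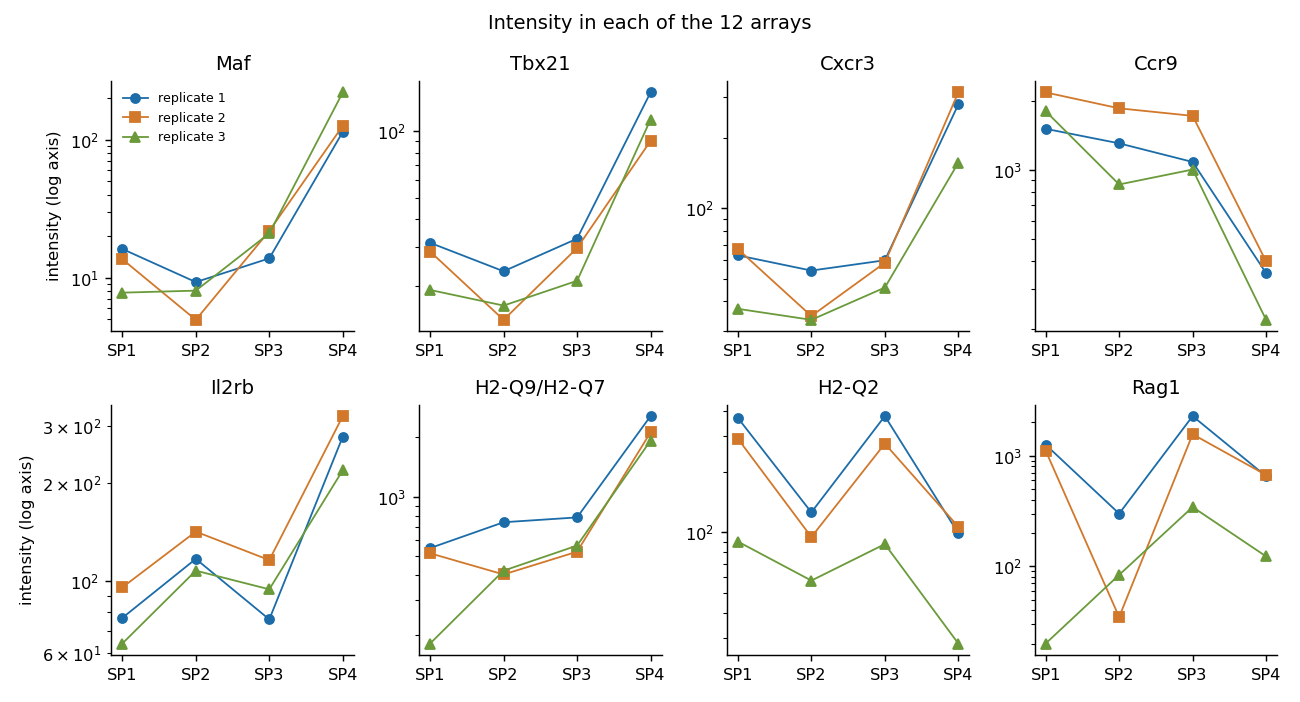
Intensity on a log axis (vertical) in each of the 12 arrays by subset (horizontal) for Maf, Tbx21, Cxcr3, Ccr9, Il2rb, the probe set shared by H2-Q9 and H2-Q7, H2-Q2 and Rag1, with arrays of the same replicate number joined by a line. Maf, Tbx21, Cxcr3, Il2rb and the Qa-2 probe set are highest and Ccr9 lowest in SP4 in every replicate. H2-Q2 is also low in SP2, and Rag1 is lower in SP2 than in SP3 or SP4 in every replicate and spans a wide range between replicates.

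Among 18 measured chemokine receptors, Cxcr3 rose and Ccr9 fell without the block, beside 0.214% and 0.0110% of all genes, and with it 5 rose and 1 fell, beside 1.21% and 0.280%. Ccr2, the receptor of monocytes and memory T cells for CCL2, read 33.7, 50.6 and 36.1 in SP3 and 114, 119 and 71.3 in SP4, separate in all arrays at 1.05 ± 0.13 (adjusted p = 0.00250 with the block and 0.0520 without it). Ccr6, a receptor of type 17 and regulatory T cells, read 42.1, 68.0 and 43.5 in SP3 and 87.8, 181 and 101 in SP4, at 1.01 ± 0.22 (adjusted p = 0.0448 with the block and 0.671 without it). Cxcr5, the receptor that leads T cells to B cell follicles, was dim at 14.3, 15.3 and 20.3 in SP3 and 27.4, 35.1 and 34.1 in SP4, at 0.56 ± 0.09 (adjusted p = 0.00985 with the block and 0.132 without it). Ccr2, Ccr6 and Cxcr5 lost the call with the block without replicate 1 (adjusted p = 0.112 to 0.243), Ccr6 and Cxcr5 without replicate 2 (adjusted p = 0.0640 to 0.189) and Ccr6 without replicate 3 (adjusted p = 0.0978). Ccr7, which guides cells into the medulla and the lymph nodes, read 1505, 1535 and 2497 in SP3 and 2444, 2217 and 2671 in SP4, and Cxcr4, the receptor of the cortex and bone marrow ligand CXCL12, 1202, 1189 and 1414 in SP3 and 1070.3, 1196 and 1964 in SP4. Neither passed, at 0.44 ± 0.25 (adjusted p = 1 without the block and 0.279 with it) for Ccr7 and 0.10 ± 0.30 (adjusted p = 1 without the block and 0.859 with it) for Cxcr4. Ccr4, a receptor of thymocytes that enter the medulla, read 70.2, 92.3 and 43.7 in SP3 and 55.4, 60.4 and 20.1 in SP4, at -0.50 ± 0.44 (adjusted p = 1 without the block and 0.163 with it). The Cxcr4 value turned negative without SP4 replicate 3 (log2 fold change -0.16).

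Integrins and other adhesion molecules gave 1 gene that rose without the block among 29 measured, Cd44, beside 0.214% of all genes, and with it 2 that rose and 1 that fell, beside 1.21% and 0.280%. Itgae, the integrin chain CD103 that binds E-cadherin on epithelium, read 82.6, 109.8 and 97.1 in SP3 and 486, 458 and 496 in SP4, a gap of several fold at 2.15 ± 0.35 (adjusted p = 0.0103 with the block and 0.124 without it). It read 130.3, 96.7 and 23.3 in the SP1 arrays. Chl1, an adhesion molecule of the L1 family, fell with the block, from 69.1, 126 and 95.9 to 31.8, 46.0 and 45.4, at -0.96 ± 0.19 (adjusted p = 0.0284 with the block and 0.495 without it). Itgae, Chl1 and Cd44 lost the call with the block without replicate 1 (adjusted p = 0.0709 to 0.248) and Chl1 without replicate 2 (adjusted p = 0.151).

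Genes of egress showed small differences. S1pr1, the receptor that draws T cells out of the thymus towards sphingosine 1-phosphate, read 583, 487 and 744 in SP3 and 1119.7, 845 and 933 in SP4. Its lowest SP4 array was above its highest SP3 array, and the log2 fold change was 0.67 ± 0.28 (adjusted p = 0.978 without the block and 0.319 with it). Klf2, the factor that induces S1pr1, read 787, 1092 and 1209 in SP3 and 1043, 1345 and 1673 in SP4, and Foxo1, which acts upstream of Klf2, 689, 924 and 1312 in SP3 and 1271, 1042 and 1607 in SP4, both with overlap and log2 changes of 0.39 ± 0.29 (adjusted p = 1 without the block and 0.423 with it) and 0.44 ± 0.28 (adjusted p = 1 without the block and 0.198 with it). Plxnd1, a semaphorin receptor of thymocytes, read 176, 238 and 231 in SP3 and 109, 101 and 156 in SP4, lower in every SP4 array at -0.76 ± 0.31 (adjusted p = 0.941 without the block and 0.0533 with it). Of the 19 measured genes of egress and the naive state, 0 were called without the block and 1, S1pr4, with it, beside 1.21% of all genes (314, 286 and 281 in SP3 and 427, 556 and 402 in SP4, at 0.61 ± 0.13 (adjusted p = 0.0488 with the block and 0.432 without it)), and 14 had a log2 fold change above 0 (median 0.25). S1pr4 lost the call with the block without replicate 1, 2 or 3 (adjusted p = 0.304, 0.203 and 0.228). Groups in which neither fit called a gene do not show that these genes stayed the same.

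Of 30 measured cytokine receptors, 2 rose without the block, Il2rb and Il18rap (0.214% of all genes), and 4 with it (1.21%), the others being Il18r1 and Il27ra, a chain of the interleukin 27 receptor. Il27ra read 374, 448 and 314 in SP3 and 691, 633 and 437 in SP4, at 0.60 ± 0.12 (adjusted p = 0.0375 with the block and 0.828 without it). Il27ra lost the call with the block without replicate 1, 2 or 3 (adjusted p = 0.612, 0.109 and 0.191). The 8 measured GIMAP GTPases, proteins of lymphocyte survival, had a median log2 fold change of 0.24 with 0 called in either fit.

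Costimulatory and inhibitory receptors, 23 measured, gave 0 calls without the block and 5 with it, all upward, beside 1.21% of all genes. Ctla4, the inhibitory receptor of CD28 ligands, read 244, 217 and 587 in SP3 and 629.7, 525 and 1198 in SP4, at 1.18 ± 0.20 (adjusted p = 0.0119 with the block and 0.755 without it). Pdcd1, which encodes PD-1, read 75.2, 101 and 97.0 in SP3 and 153, 276 and 272 in SP4, separate in all arrays at 1.19 ± 0.18 (adjusted p = 0.00615 with the block and 0.136 without it). Icos, the inducible costimulator, read 694, 1251 and 1890.0 in SP3 and 1677, 2385 and 2851 in SP4, at 0.92 ± 0.16 (adjusted p = 0.0130 with the block and 0.965 without it). In Ctla4 and Icos replicate 3 was highest in both subsets, so the subsets overlapped while each pair rose. Tnfrsf1b, a receptor of tumour necrosis factor, had a paired log2 change of 0.79 ± 0.13 (adjusted p = 0.0127 with the block and 1 without it). Ctla4, Icos and Tnfrsf1b lost the call with the block without replicate 1 (adjusted p = 0.177 to 0.329), Ctla4 and Pdcd1 without replicate 2 (adjusted p = 0.0525 to 0.0741) and Icos and Tnfrsf1b without replicate 3 (adjusted p = 0.0524 to 0.125).

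The 13 genes that the study names for immune function were all measured, and all 13 had a log2 fold change above 0 (median 0.67). Il2rb rose without the block and 6 rose with it, beside 0.214% and 1.21% of all genes: Il2rb, Icos, Ctla4, Pdcd1, Tnfsf8 and Ppp3cc, a calcineurin catalytic subunit (55.8, 68.0 and 83.0 in SP3 and 109.9, 106 and 147 in SP4, at 0.69 ± 0.12 (adjusted p = 0.0159 with the block and 0.271 without it)). Ppp3cc lost the call with the block without replicate 1, 2 or 3 (adjusted p = 0.416, 0.0505 and 0.0774). Tgfbr2, a receptor chain of TGF-β, read 1195, 1413 and 1833 in SP3 and 2818, 2069 and 2157 in SP4 and Il6ra 262, 323 and 589 in SP3 and 454, 466 and 817 in SP4, at 0.67 ± 0.21 (adjusted p = 0.624 without the block and 0.136 with it) and 0.58 ± 0.42 (adjusted p = 1 without the block and 0.150 with it). Malt1, Pik3cd and Tnfrsf25, of antigen receptor and costimulatory signals, were not called, at log2 changes of 0.49, 0.46 and 0.41. Dtx1, a regulator of Notch signals, was not called either, at 0.35 ± 0.25 (adjusted p = 1 without the block and 0.322 with it). The study chose this list on these samples, so its direction is not independent evidence.

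Most interferon response genes had higher values in SP4, and few were called. Of 33 measured, 32 had a log2 fold change above 0 (median 0.45), 14 had no overlap between subsets with SP4 above, against 4.74% of all genes, 0 were called without the block and 6 rose with it, beside 1.21% of all genes. Ifit3 read 268, 341 and 192 in SP3 and 591, 754 and 346 in SP4, at 1.00 ± 0.15 (adjusted p = 0.00543 with the block and 0.736 without it). Oas1a, an antiviral synthetase of oligoadenylates, read 244, 266 and 278 in SP3 and 418, 512 and 520.3 in SP4, at 0.84 ± 0.14 (adjusted p = 0.0104 with the block and 0.0980 without it). Iigp1, an interferon-inducible GTPase, read 198, 362 and 532 in SP3 and 497, 569 and 888 in SP4, at 0.87 ± 0.14 (adjusted p = 0.00782 with the block and 1 without it). Irf7, a factor that sustains the response, read 428, 434 and 419 in SP3 and 588, 675 and 542 in SP4, separate but not called, at 0.48 ± 0.17 (adjusted p = 0.773 without the block and 0.181 with it). The other calls were Oasl2, Gbp3 and Irgm2, at log2 changes of 0.66, 0.74 and 0.61, and Irgm2 turned to -0.13 without SP4 replicate 3. Ifit3, Oas1a, Oasl2, Gbp3, Irgm2 and Iigp1 lost the call with the block without replicate 1 (adjusted p = 0.0902 to 0.535), Oas1a, Oasl2, Gbp3 and Irgm2 without replicate 2 (adjusted p = 0.0536 to 0.116) and Oas1a, Oasl2, Gbp3, Irgm2 and Iigp1 without replicate 3 (adjusted p = 0.0769 to 0.158). The 15 measured genes of classical class I and peptide loading had a median log2 change of 0.23, with 14 above 0. H2-D1 alone was called, with the block, beside 1.21% of all genes.

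Fewer genes fell than rose. Cd24a, the surface glycoprotein of immature thymocytes, read 2463, 1452 and 1880.0 in SP3 and 819, 698 and 883 in SP4, with no overlap, and fell by 1.23 on the log2 scale (SE 0.19, adjusted p = 0.0365). Edaradd, an adaptor of the ectodysplasin receptor, read 120.0, 141 and 103 in SP3 and 28.1, 36.4 and 25.2 in SP4 and fell by 1.58 (SE 0.25, adjusted p = 0.0407). Marcks, a substrate of protein kinase C that binds actin, read 216, 202 and 152 in SP3 and 76.4, 82.2 and 73.2 in SP4 and fell by 1.13 (SE 0.17, adjusted p = 0.0360). All 3 were lower in every SP4 array than in any of the 9 other arrays. The probe sets of Edaradd and Marcks may cross-hybridise by their design names. With the block, F13a1, a coagulation factor chain (167, 270.2 and 187 in SP3 and 52.7, 77.0 and 68.2 in SP4), Hacd1, an enzyme of very long chain fatty acids (126, 147 and 183 in SP3 and 27.7, 59.0 and 63.2 in SP4), and Syt13, a synaptotagmin (202, 157 and 65.6 in SP3 and 58.5, 53.0 and 28.8 in SP4), also fell, at log2 changes of -1.44, -1.38 and -1.25 (adjusted p = 0.00331, 0.00779 and 0.0339 with the block). Cd24a, Edaradd, Marcks, F13a1, Hacd1 and Syt13 lost the call with the block without replicate 1 (adjusted p = 0.0588 to 0.507), Syt13 without replicate 2 (adjusted p = 0.0982) and Hacd1 without replicate 3 (adjusted p = 0.0607).

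Markers of cortical double positive thymocytes had lower values in SP4, and few were called. All 19 measured had a log2 fold change below 0 (median -1.23). Without the block 2 fell, Ccr9 and Cd24a, against 0.0110% of all genes, and with it 3 fell, against 0.280%, the third being Cd8a. Cd8a read 1838, 893 and 81.5 in SP3 and 358, 247 and 16.3 in SP4, at -1.90 ± 0.41 (adjusted p = 0.0451 with the block and 1 without it). Cd8a lost the call with the block without replicate 1 or 3 (adjusted p = 0.529 and 0.0528). Cd8b1, the partner chain, read 3060.1, 1626 and 753 in SP3 and 675, 668 and 352 in SP4, at -1.49 ± 0.62 (adjusted p = 0.954 without the block and 0.121 with it). Rag1, which cuts the receptor genes during rearrangement, read 2280.3, 1563 and 344 in SP3 and 652, 669 and 123 in SP4, and Dntt, which adds bases at their joints, 3485, 1856 and 428 in SP3 and 1003, 978 and 207 in SP4. Neither passed, at -1.45 ± 1.28 (adjusted p = 1 without the block and 0.501 with it) and -1.23 ± 1.05 (adjusted p = 1 without the block and 0.285 with it). The SP2 arrays of Rag1 read 300, 34.8 and 83.7, below the SP3 and SP4 arrays of the same number. Its lower level in SP4 was therefore no steady decline over the subsets. For Ccr9 and Cd24a all SP2 arrays were above all SP4 arrays, but neither fell steadily in every replicate. The SP2 arrays of Cd24a read 1536, 1448 and 1829, each below the SP3 array of the same number. In replicate 3, Ccr9 went from 864 in SP2 to 1005 in SP3. The summed level of the list was 22699, 15394 and 9518 in SP3 replicates 1, 2 and 3 and 8466, 7477 and 6085 in SP4. In every pair SP4 was lower, with the widest gap in replicate 1 and the narrowest in replicate 3. The gate excluded CD8+ cells, and whether remaining double positive cells contributed to these values was not tested.

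All 23 measured cell cycle genes also had a log2 fold change below 0 (median -0.41), and 0 passed in either fit. Their summed level was 36088, 23483 and 14414 in SP3 and 20024, 18994 and 13890 in SP4. Replicate 1 thus held the largest difference and replicate 3 almost none. The 12 measured housekeeping genes had a median of -0.03, and their summed level ranged from 40532 to 48946 in SP3 and from 40227 to 49368 in SP4.

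Of 19 measured apoptosis regulators, 0 were called without the block, and with it 2 rose and 1 fell, beside 1.21% and 0.280% of all genes, with a median log2 fold change of 0.04. Bcl2l1, which encodes Bcl-xL, the survival protein of double positive cells, read 356, 368 and 264 in SP3 and 234, 231 and 179.9 in SP4 and fell, at -0.58 ± 0.11 (adjusted p = 0.0263 with the block and 0.643 without it). Traf1, a signal adaptor of TNF receptors, read 106, 131 and 235 in SP3 and 231, 227 and 444 in SP4, at 0.88 ± 0.13 (adjusted p = 0.00681 with the block and 0.866 without it). A probe set shared by Bcl2a1a, Bcl2a1b and Bcl2a1d, survival genes of the Bcl-2 family, read 227, 357 and 659.9 in SP3 and 543, 1109 and 1981 in SP4, higher in SP4 in each pair, at 1.45 ± 0.24 (adjusted p = 0.00972 with the block and 0.751 without it). Among 29 measured genes of T cell receptor signalling and immediate early response, 0 were called without the block and 2 rose with it, beside 1.21% of all genes. They were Spry2, an inhibitor of growth factor signals (17.8, 31.0 and 35.9 in SP3 and 84.6, 75.4 and 213 in SP4, at 1.56 ± 0.21 (adjusted p = 0.00320 with the block and 0.121 without it)), and Dusp4, a phosphatase of MAP kinases (158, 183 and 247 in SP3 and 216, 306 and 386 in SP4, at 0.57 ± 0.12 (adjusted p = 0.0451 with the block and 1 without it)). Bcl2l1, Traf1, Spry2 and Dusp4 lost the call with the block without replicate 1 (adjusted p = 0.0588 to 0.397), Bcl2l1 and Dusp4 without replicate 2 (adjusted p = 0.129 to 0.185) and Bcl2l1, Traf1, the shared Bcl2a1a and Bcl2a1b and Bcl2a1d probe set and Dusp4 without replicate 3 (adjusted p = 0.0519 to 0.277).

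**Figure D4:**
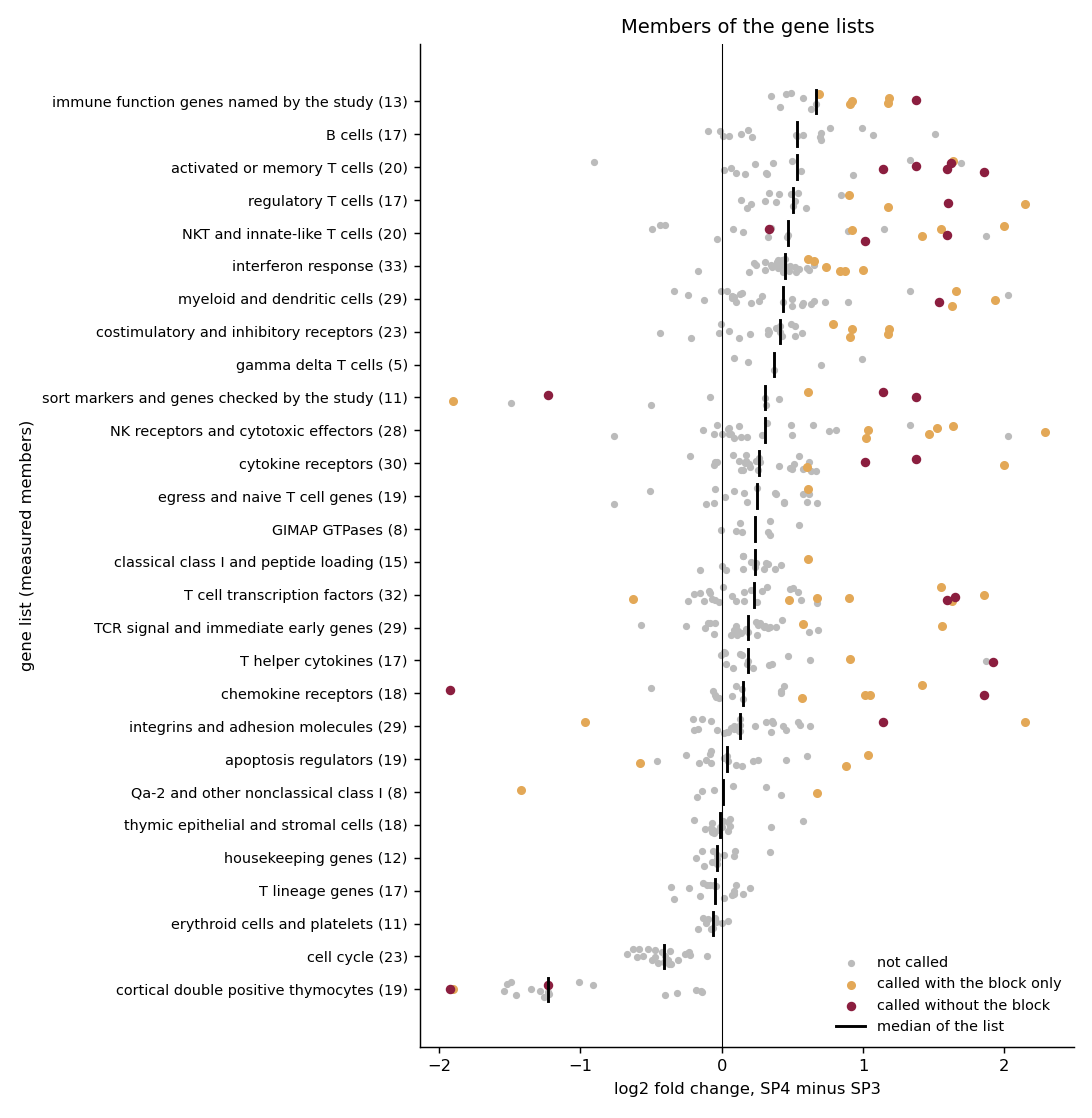
Log2 fold change from SP3 to SP4 (horizontal) of each measured member of the 28 gene lists (vertical, number measured in brackets, ordered by median). Grey points were not called, orange points were called only with the block, dark red points without it, and black bars are medians, with cortical double positive markers at -1.23 at one end and the study's immune function genes at 0.67 at the other.

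Markers of other cells that the gate could hold were read as whole lists. These lists too were made with earlier results of these data known, so their shares are no independent evidence. For activated or memory T cells, 5 of 20 measured rose without the block (Cd44, Cxcr3, Il2rb, Ahnak and Tbx21) and 6 with it, beside 0.214% and 1.21% of all genes, and the median was 0.53. Ahnak, a very large scaffold protein, read 59.6, 134 and 99.5 in SP3 and 292, 367 and 308 in SP4 and rose by 1.62 ± 0.27 (adjusted p = 0.0446). Their summed level was 12374 to 12851 in SP3 and 12643, 18628 and 16848 in SP4 replicates 1, 2 and 3, so that replicate 1 was inside the SP3 range. Of regulatory T cell genes, 1 of 17 measured rose without the block, Nt5e, and 4 with it, beside the same shares, all 17 being above 0 (median 0.50). Foxp3, their lineage factor, read 34.5, 58.0 and 25.5 in SP3 and 66.2, 136 and 65.3 in SP4, dim in both subsets at 0.90 ± 0.14 (adjusted p = 0.00828 with the block and 0.656 without it), and Il2ra, the gene of the excluded CD25, 40.1, 45.4 and 42.1 in SP3 and 49.9, 99.3 and 45.1 in SP4. Ahnak lost the call with the block without replicate 1 (adjusted p = 0.0562) and Foxp3 without replicate 3 (adjusted p = 0.105). The summed level went from 3165 to 4975 in SP3 and from 4848 to 7938 in SP4.

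Myeloid and dendritic cell markers also differed. Of 29 measured, Siglech, a lectin of plasmacytoid dendritic cells, rose without the block, and Siglech, Irf8, Cybb and Mpeg1 with it, beside 0.214% and 1.21% of all genes. Of the 29, 25 had a log2 fold change above 0 (median 0.44), and 12 had all SP4 arrays above all SP3 arrays, against 4.74% of all genes. The highest value was that of Tyrobp, given above, which was not called, and Ctss, a protease of antigen-presenting cells, was separate too (1419, 1477 and 2111 in SP3 and 2346, 2810.0 and 2539 in SP4, at 0.63 ± 0.20 (adjusted p = 0.624 without the block and 0.152 with it)). Siglech read 51.3, 31.2 and 51.1 in SP3 and 168, 180.1 and 128 in SP4, at 1.54 ± 0.26 (adjusted p = 0.0482). Mpeg1, the pore-forming perforin-2 of phagocytes, read 86.9, 113 and 107 in SP3 and 497, 574 and 284 in SP4, at 1.93 ± 0.38 (adjusted p = 0.0309 with the block and 0.379 without it), and Cybb, the oxidase chain of phagocytes, 26.2, 35.0 and 26.8 in SP3 and 135, 187 and 78.6 in SP4, at 1.66 ± 0.30 (adjusted p = 0.0180 with the block and 0.281 without it). In SP1, Siglech read 70.3, 83.8 and 33.3, Mpeg1 202, 277 and 35.4 and Cybb 77.6, 97.8 and 15.8. All 3 genes were thus higher in SP1 than in SP3 in replicates 1 and 2 and lower in replicate 3. Siglech, Mpeg1 and Cybb lost the call with the block without replicate 1 (adjusted p = 0.0889 to 0.416) and Mpeg1 and Cybb without replicate 2 (adjusted p = 0.0653 to 0.101). Lyz2 (119.9, 107 and 114 in SP3 and 170.0, 395 and 95.2 in SP4) and Csf1r (52.6, 53.4 and 39.6 in SP3 and 86.1, 118 and 38.2 in SP4), defining markers of macrophages, had overlapping subsets. Its summed level was 3209 to 4029 in SP3 and 5137 to 7423 in SP4, without overlap. Of 17 measured B cell genes 0 were called in either fit (median 0.53), and their summed level was 2345 to 3565 in SP3 and 4498, 6536 and 2385 in SP4, with replicate 2 highest. Cd79a, a chain of the B cell receptor, read 24.8, 35.2 and 29.1 in SP3 and 29.3, 52.0 and 31.8 in SP4, and H2-Aa, an MHC class II chain, 96.5, 105 and 119 in SP3 and 198, 405 and 145 in SP4. For γδ T cells 5 of 15 listed genes were measured, with 0 called, and Trgv4 read 204, 209.9 and 181 in SP3 and 336, 707 and 288 in SP4. Lists of stromal and erythroid cells had medians of -0.01 and -0.06 with 0 called. The part of any such cells in the genes that rose was not tested.

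**Figure D5:**
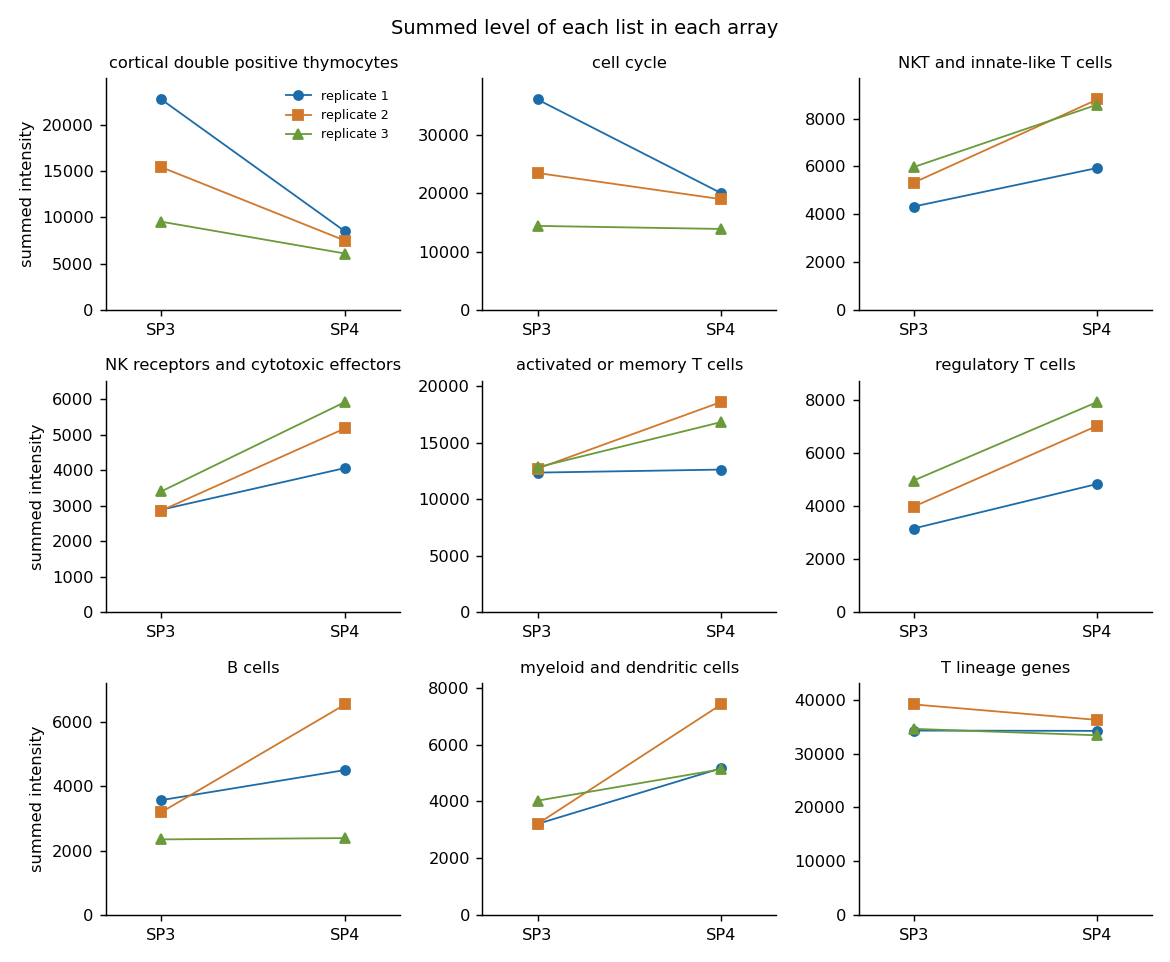
Summed intensity (vertical, from 0) of the measured members of 9 gene lists in each SP3 and SP4 array (horizontal), with arrays of the same replicate number joined. Cortical double positive markers go from 9518 to 22699 in SP3 down to 6085 to 8466 in SP4, NK and myeloid sums are higher in all SP4 arrays than in any SP3 array, and T lineage sums stay between 33439 and 39186.

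The last step was also set against the earlier ones. For each probe set, the change from SP3 to SP4 was compared with the mean change per step from SP1 to SP3. Without the block 0 probe sets passed (1396 had an unadjusted p under 0.05), and with it 83 had a higher and 12 a lower last step (0.184% and 0.0266% of all). Of the 13 probe sets of the 12 genes above, 12 were among them. Those genes were picked for their change from SP3 to SP4, which is part of this contrast, so their passing is no independent finding. For Maf the last step exceeded the mean earlier step by 2.09 ± 0.25 (adjusted p = 0.00939 with the block and 0.161 without it) on the log2 scale, for Tbx21 by 1.57 ± 0.17 (adjusted p = 0.00752 with the block and 0.252 without it) and for Cxcr3 by 1.86 ± 0.20 (adjusted p = 0.00776 with the block and 0.352 without it). Ccr9 gave -1.65 ± 0.23 (adjusted p = 0.0165 with the block and 0.784 without it). Zbtb16 did not pass, at 1.04 ± 0.29 (adjusted p = 0.314 with the block and 1 without it), and its intensities in the SP1 arrays were 29.8, 17.1 and 10.9, below all SP3 arrays. Rflnb, a filamin-binding protein, likewise rose at the last step (141, 166 and 184 in SP3 and 532, 459.5 and 396 in SP4, at 1.41 ± 0.21 (adjusted p = 0.0308)) from levels that were already above those of SP1 (49.4, 63.8 and 34.0), with a difference between steps of 0.67 ± 0.25 (adjusted p = 0.546 with the block and 1 without it). Rflnb lost the call with the block without replicate 1 (adjusted p = 0.109). SP3 arrays enter both sides of this contrast.

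Motifs of the factors that rose were searched in RefSeq promoters of the genes higher in SP4. Of the 37 genes called without the block, 26 had an entry, with 36 promoters of 300 bases. The T-box letters AGGTGTGA were found in 0 of 36, against 1.28% of all promoters, and the letters TGCTGAC of MAF recognition elements in 3 of 36 (8.33%), those of Cd55, Chn2 and Klk1b27, against 4.67% of all, on both strands. Of the 82 genes called with the block, 59 had an entry, with 80 promoters. There the T-box letters were found in 0 of 80 and the MAF letters in 5 of 80 (6.25%). These shares were not tested, and neither presence nor absence of the letters says anything of either factor.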

How the data were processed

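The deposited table gives a linear intensity for each probe set and array, after background correction and between-array normalization by the authors. Their methods name RMA and the submitters' processing notes MAS5, with versions not given in the sources used here. The raw scans were not used.

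Intensities plus an offset of 16 were put on the log2 scale. All 12 arrays entered a limma fit of the 4 subset means (limma 3.58.1, R 4.3.3, eBayes with a mean-variance trend, 8 residual degrees of freedom), with Benjamini-Hochberg adjustment over 45037 probe sets. Changed probe sets had an adjusted p below 0.05 together with a fold of more than 2. For named genes and list members the adjusted p alone decided. Fold changes are on the log2(intensity + 16) scale, which understates those of dim genes. Deviations of same-numbered SP3 and SP4 arrays from their subset means correlated between 0.599 and 0.847, and those of different number between -0.701 and 0.426. The replicate number was therefore entered as a block in a paired fit (6 residual degrees of freedom), given beside the result. The labels call the arrays biological replicates, each of pooled thymi. Precision is limited by the number of arrays, 3 in each subset.

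By the array annotation, 932 probe sets name several genes and 9160 are unnamed here. A gene was read by its probe set of highest mean, not ending in _x_at where it had another, and genes named for their rank by the probe set of largest fold. Named are the sort markers, genes the study names for Qa-2, egress and immune function, the 15 higher and 10 lower genes of largest fold that moved alike in 3 of 3 pairs (first without and then with the block), and called list members, apart from a few named to show genes that did not pass. The 28 lists (467 of 541 genes measured) and all choices were made with earlier results of these data known. Sequences are from RefSeq (GRCm38.p6), and the motifs were chosen after the calls were seen. The scripts were tested on simulated data. Alternatives were other offsets, a filter on mean intensity over 50, quantile normalization, no trend, only SP3 and SP4 arrays, the mean of a gene's probe sets, leaving out single arrays, and, chosen after seeing the data, leaving out all arrays of 1 replicate number.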

Additional observations from a re-analysis of the deposited data

How the results depend on the processing

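The counts of probe sets depended on the spread that entered the fit. With the replicate block, 125 were higher, 37 lower and 523 passed at any fold, against 46, 5 and 72 without it, and 95 passed for the last step against the earlier ones, against 0. With SP3 and SP4 arrays only, 0 were higher, 0 lower and 0 passed at any fold by limma (1691 at an unadjusted p under 0.05, smallest adjusted p 0.0656), and with the block in the same 6 arrays 148, 52 and 474. An offset of 1 left 38 at any fold. An offset of 64 gave 24 higher and 3 lower, a mean intensity over 50 gave 16, 3 and 21 at any fold, and no mean-variance trend 24, 3 and 46. Leaving out 1 array gave 2 to 69 higher, 0 to 6 lower, 3 to 104 at any fold and 0 to 14 for the last step. Chosen after seeing the data, the fit without all arrays of replicate 3 gave 133, 44, 298 and, for the last step, 103, and with the block 139, 55, 355 and 134. Without those of replicate 2 and with the block the counts were 98, 30, 237 and 18, and without those of replicate 1 they were 60, 7, 80 and 7. Quantile normalization kept all counts within 1.5 times (42, 7 and 73). The cause of these shifts was not tested.

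Few directions turned, and those values did not pass without the block. Over the arrays left out, Cd4 ranged from -0.39 to 0.24 (above 0 without SP3 replicate 2 or SP4 replicate 3), Cxcr4 from -0.16 to 0.28 (below 0 without SP4 replicate 3) and Irgm2 from -0.13 to 1.44 (below 0 without SP4 replicate 3). Without all arrays of replicate 3, Cxcr4 stood at -0.08, and with the replicate block in that fit at -0.0783. Of the named probe sets, the calls that the block changed are given beside the results. Genes dim in both subsets have levels near the lower end of the arrays, where fold changes are least certain.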
